A study of Mus musculus with 2 samples.

Results

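The 9 Toll-like receptor genes Tlr1 to Tlr9 and Myd88, the adaptor gene that most of these receptors signal through, were followed in RNA from mouse hematopoietic stem cells. The 10 genes were fixed by name and matched by symbol to their Ensembl gene identifiers, and all 10 were found among 43346 mouse genes in the tables. Total RNA was sequenced from 2 pools of 100 cells each, numbered in the labels as biological replicates 1 and 2, and both belong to 1 group. Both are labelled with the strain C57BL/6J, male sex, adult stage and an age of 5 to 6 weeks, and they carry the same donor identifier with different biosample identifiers. The linked isolation protocol names progenitors from bone marrow, and the sort gate is not known here. The labels do not say if separate mice were used, and the spread between the pools may thus be technical in part. No second condition was measured, so each gene is described by its level in both libraries (mean ± SD, n = 2 throughout) and no test between groups was possible.

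Toll-like receptors are membrane proteins that recognise molecules of microbes. Tlr1, Tlr2, Tlr4, Tlr5 and Tlr6 act mainly at the cell surface on lipids, lipoproteins and flagellin, and Tlr3, Tlr7, Tlr8 and Tlr9 act in endosomes on nucleic acids. All but Tlr3 recruit Myd88, which assembles the Irak kinases and Traf6 and leads to NF-kB activation. Blood stem and progenitor cells are known to carry some of these receptors and to respond to their ligands.

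Levels are given in TPM, which is abundance per transcript length scaled to the same total in each library. A gene was called present when its TPM reached 1 and its expected count reached 10. The expected count is the authors' estimate of the reads of a gene. Nuclear protein coding genes received 19528380 expected counts in replicate 1 and 10411450 in replicate 2, yet 10999 of 21461 of them had a count in replicate 1 against 13173 in replicate 2. They held 30.0% and 26.5% of TPM, so 1 TPM in these total RNA libraries equals 3.33 and 3.77 TPM on a scale of coding genes alone. Of the 12 stem and multipotent cell markers, 11 were present in both libraries, and Slamf1 in replicate 1 alone. They summed to 722 and 533 TPM. All 10 erythroid markers were present in both libraries, and their sum of 2192 and 1945 TPM was the largest of the marker lists. Car1 alone gave 1333 and 1071 TPM of it. The summed level of 11 neutrophil markers was 0.50 TPM in the first library and 316 TPM in the second. That of 10 B cell markers was 9.08 and 34.6 TPM, and that of 12 monocyte and macrophage markers 161 and 149 TPM. Ly6c2 alone held 147 and 133 TPM of the last sum, which thus says little on the other markers of that list.

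Of the 9 receptors, Tlr4 and Tlr7 were present in both libraries, Tlr5 in replicate 1 alone and Tlr2 in replicate 2 alone. Tlr1, Tlr3, Tlr6, Tlr8 and Tlr9 were below the threshold in both libraries. Myd88 was present in both, so 3 of the 10 genes were. Of all nuclear coding genes 45.5% were present in both libraries, 2.09% in replicate 1 alone, 4.52% in replicate 2 alone and 47.9% in neither. The receptors divided differently when any count was asked for. All 9 had counts in replicate 2, and Tlr1, Tlr6, Tlr8 and Tlr9 had none in replicate 1. Counts in replicate 2 with none in replicate 1 were found for 10.7% of all coding genes, and the reverse for 0.596%.

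Myd88 had the highest level of the 10 genes. It stood at 8.46 TPM (499 counts) in replicate 1 and 7.76 TPM (264 counts) in replicate 2, a mean of 8.11 ± 0.49 TPM. The 95% exact Poisson intervals, which here and below cover counting error only, were 7.73 to 9.24 and 6.85 to 8.75 TPM, so the libraries overlapped. This level was higher than that of 33.0% of the 9769 coding genes present in both libraries in replicate 1 and 33.3% in replicate 2. Of 2435 coding genes within 1.5-fold of its level in replicate 1, 1.72% were not present in replicate 2. Myd88 (ENSMUSG00000032508) lies on the minus strand of chromosome 9 at 119335934 to 119341411 (GRCm38, GENCODE M21). The coding transcript Myd88-201 held 100% of its signal in replicate 1 and 91.0% in replicate 2, where a transcript annotated as a retained intron, Myd88-203, held 8.98% (29.4 counts with a posterior SD of 5.00). The opposite-strand gene Acaa1a shares 290 of the 2576 exonic bases of Myd88 and had 19.7 and 8.68 TPM, and the sources used here do not say whether the counting used strand.

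**Figure D1:**
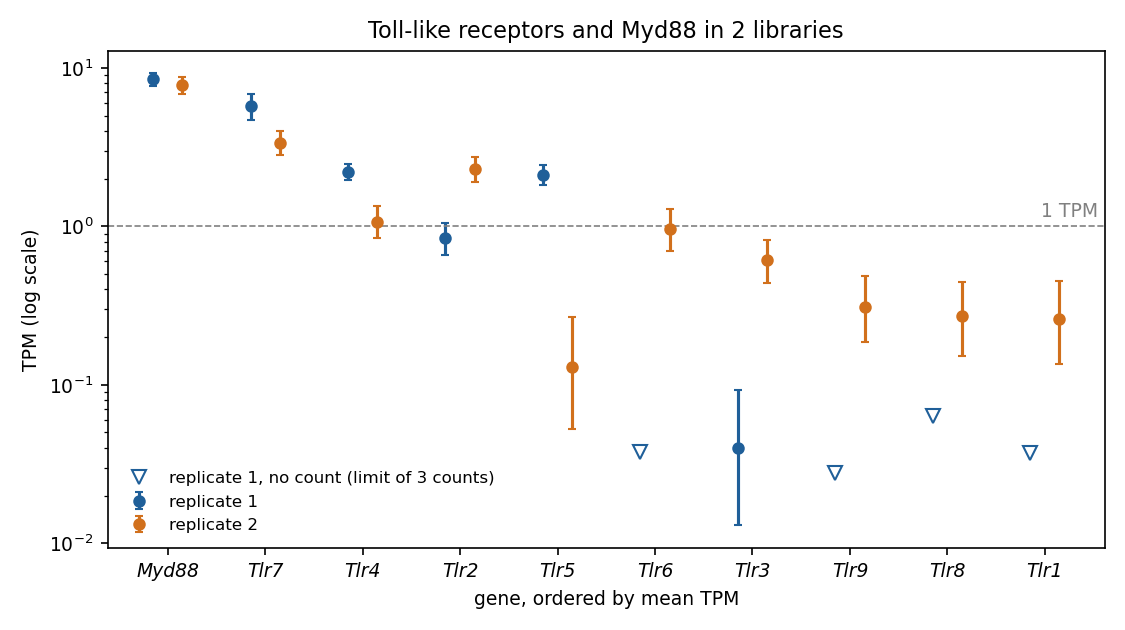
Levels of Myd88 and the 9 receptors in TPM on a log axis, ordered by mean level. Circles are the libraries with 95% exact Poisson intervals (counting error only), and open triangles mark the limit of 3 counts, at the shorter effective length, where replicate 1 had no count. Myd88 overlaps between the libraries at 8.46 and 7.76 TPM, while Tlr5 and Tlr2 lie on opposite sides of the 1 TPM line in the 2 libraries.

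Among the surface receptors, Tlr4, the receptor for bacterial lipopolysaccharide, was measured at 2.2 TPM in replicate 1 (279 counts) and 1.07 TPM in replicate 2 (77 counts). Its mean was 1.64 ± 0.80 TPM, and the interval in replicate 2 (0.84 to 1.34 TPM) reached below the threshold. The coding transcript Tlr4-201 held 100% of the signal in both libraries. Tlr4 (ENSMUSG00000039005) is at chromosome 4, 66827584 to 66930284 on the plus strand. Of 1067 coding genes within 1.5-fold of its level in replicate 1, 18.8% were not present in replicate 2.

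Tlr5, the receptor for flagellin, stood at 2.12 TPM in replicate 1 (185 counts) and 0.13 TPM in replicate 2 (7 counts). The libraries did not overlap (intervals 1.83 to 2.45 and 0.05 to 0.27 TPM), and the level was 16.3-fold higher in replicate 1, with a log2(TPM + 1) difference of 1.47 for replicate 1 minus 2. That fold rests on 7 counts in replicate 2. The authors' posterior means were closer, at 2.2 and 0.38 TPM, with intervals of 1.86 to 2.55 and 0.12 to 0.71 TPM. Of 1022 coding genes within 1.5-fold of the TPM of Tlr5 in replicate 1, 19.3% were not present in replicate 2 and 5.87% were at least 10-fold lower there. On the log2(TPM + 1) scale Tlr5 alone of the 10 genes differed by more than 2-fold. On that scale 11.3% of the coding genes present in either library were over 2-fold higher in replicate 1 and 12.1% in replicate 2 (5.87% and 6.38% of all coding genes). The count of members depends on the scale. With a pseudocount of 0.1 TPM 7 differed by more than 2-fold, 6 of them higher in replicate 2, and on TPM rescaled to coding genes 6 did, 5 of them higher in replicate 2. The share of all coding genes was not computed on these 2 scales, so these counts cannot be read as a trait of the receptors. Tlr1, Tlr6, Tlr8 and Tlr9, without a count in replicate 1, are among the 6 at the smaller pseudocount. The counts of Tlr5 were placed on different transcripts, Tlr5-204 (4 exons) in replicate 1 and Tlr5-201 in replicate 2. Tlr5 (ENSMUSG00000079164) is at chromosome 1, 182954788 to 182976044 on the plus strand.

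Tlr2, which recognises bacterial lipoproteins as a dimer with Tlr1 or Tlr6, showed the opposite order. It was at 0.84 TPM in replicate 1 (78 counts) and 2.29 TPM in replicate 2 (120 counts), with intervals of 0.66 to 1.05 and 1.90 to 2.74 TPM. The level was 2.73-fold higher in replicate 2, and the counts in replicate 1 place it just under the threshold rather than at 0. Of 1409 coding genes within 1.5-fold of its level in replicate 2, 30.0% were not present in replicate 1. The partner genes had no count in replicate 1, where 3 counts would be 0.04 TPM for each. In replicate 2 Tlr6 reached 0.96 TPM (43 counts) and Tlr1 0.26 TPM (12 counts). The level of Tlr6 in replicate 2 was 25.4-fold the limit of 3 counts in replicate 1, and that of Tlr1 was 7.01-fold. These folds leave out the counting error in replicate 2. The intervals there were 0.69 to 1.29 TPM for Tlr6 and 0.13 to 0.45 TPM for Tlr1. Tlr2 (ENSMUSG00000027995) lies at chromosome 3, 83836272 to 83841767, on the minus strand.

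Tlr1 and Tlr6 are neighbours on the minus strand of chromosome 5, at 64924679 to 64933563 and 64952031 to 64960097, with 18.5 kb between them. Their coding sequences (2385 and 2418 bases) share stretches in which a read cannot be told apart, and 19.4% of the 50-base windows of Tlr1 occur in Tlr6, whereas none occur in Tlr2. The longest identical run, shown because reads within it fit both genes, spans 229 bases, at 1468 to 1696 of the Tlr1 coding sequence and 1507 to 1735 of that of Tlr6 (GENCODE M21 transcripts, GRCm38).
Tlr1 and Tlr6 shared run: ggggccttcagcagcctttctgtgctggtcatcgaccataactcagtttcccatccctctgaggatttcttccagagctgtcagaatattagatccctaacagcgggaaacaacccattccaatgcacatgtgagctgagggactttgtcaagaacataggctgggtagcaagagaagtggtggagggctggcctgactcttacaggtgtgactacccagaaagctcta
The authors' posterior SD of the gene count was 0 for both genes in both libraries, as for the other 8 genes. The summed counts of the pair, 0 in replicate 1 and 55 in replicate 2, do not depend on how such reads were divided between them.

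Among the endosomal receptors, Tlr7, a receptor for single-stranded RNA, had the highest level of all 9 at 4.54 ± 1.65 TPM. It stood at 5.71 TPM in replicate 1 (116 counts) and 3.37 TPM in replicate 2 (126 counts). The counts and the TPM values order the libraries in opposite ways, although replicate 1 had more counts in all. In replicate 1, 39 of the counts were placed on Tlr7-205, a 366-base annotated coding transcript, and gave 4.99 TPM, or 87.4% of the level of the gene. The remaining 77 counts lay on the 3468-base Tlr7-203 and gave 0.72 TPM. In replicate 2, transcripts under 1000 bases received 6.58 counts and 1.5 TPM, against 119 counts and 1.87 TPM for the longer ones, Tlr7-201 (71.3 counts) and Tlr7-203 (48.1 counts). The transcript counts within the gene were uncertain in replicate 2, with a posterior SD of 23.9 for Tlr7-201. The level of the longer transcripts was therefore higher in replicate 2, with a log2(TPM + 1) difference of -0.74, while that of the gene was 0.62. Tlr7 (ENSMUSG00000044583) is on the minus strand of chromosome X at 167304929 to 167330558. Tlr7-205 runs from 167308342 to 167330491, and Tlr7-203 from 167305214 to 167330497.

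**Figure D2:**
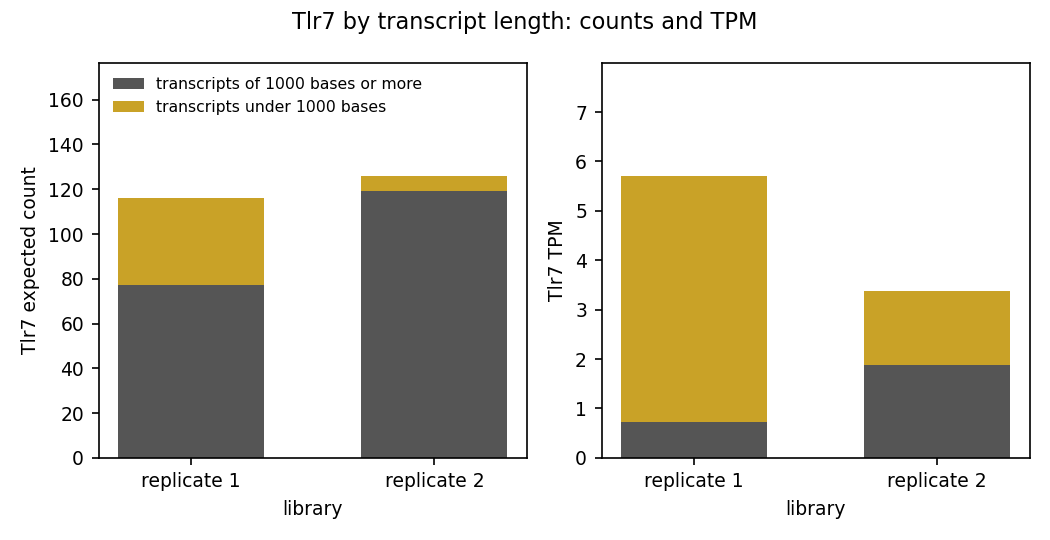
Expected counts (left) and TPM (right) of Tlr7 in each library, stacked by transcript length. In replicate 1 transcripts under 1000 bases hold 39 of 116 counts but 4.99 of 5.71 TPM, and in replicate 2 they hold 6.58 of 126 counts and 1.5 of 3.37 TPM.

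With the counts of each gene divided by the length of its longest transcript, an alternative chosen after these values were seen, the level of Tlr7 was 1.06 TPM in the first library and 2.01 TPM in the second. It remained present in both libraries on that scale, at a level 1.89-fold higher in replicate 2. The order of the receptors changed with it, to Tlr4 (1.81 ± 0.90 TPM), Tlr2 (1.71 ± 1.10 TPM) and Tlr7 (1.53 ± 0.67 TPM). On this scale 44.7% of coding genes were present in both libraries, 2.28% in replicate 1 alone and 4.17% in replicate 2 alone, and Tlr6 joined Tlr2 in the last group at 1.04 TPM. A reversal of this kind, with at least 0.5 log2 units in opposite directions on the 2 scales, was seen for 39 of 10495 coding genes (0.372%) with 10 counts or more in both libraries. The limit of 0.5 belongs to that later choice of scale. Tlr7 passes it narrowly, at 0.62 and -0.54, so the share is no measure of how rare Tlr7 is.

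The other endosomal receptors were low. Tlr3, which binds double-stranded RNA and signals without Myd88, was at 0.04 TPM in replicate 1 (5 counts) and 0.61 TPM in replicate 2 (42 counts). Its intervals (0.01 to 0.09 and 0.44 to 0.82 TPM) did not overlap, and the level was 15.3-fold higher in replicate 2. Tlr9, the receptor for unmethylated CpG DNA, had no count in replicate 1 and 0.31 TPM in replicate 2 (19 counts), and Tlr8, an RNA receptor, had none and 0.27 TPM (15 counts). The level of Tlr9 in replicate 2 (interval 0.19 to 0.48 TPM) was 11.1-fold the limit of 3 counts in replicate 1, without the counting error of replicate 2. For Tlr8 that limit is 0.064 TPM at the shorter effective length deposited for replicate 1, and the authors' intervals of 0.044 to 0.63 TPM in replicate 1 and 0.30 to 1.39 TPM in replicate 2 overlap. Tlr8 (chromosome X, 167242696 to 167264329) lies 40.6 kb from Tlr7 on the same strand, and it was lower than its neighbour in both libraries. Tlr3 lies on chromosome 8 at 45395665 to 45411080 and Tlr9 on chromosome 9 at 106222598 to 106226883.

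The 4 receptors without a count in replicate 1 lay between 0.26 and 0.96 TPM in replicate 2. Of 1198 coding genes in that range in replicate 2, 59.3% likewise had no count in replicate 1, whereas of 466 genes in the same range in replicate 1, 6.65% had none in replicate 2. The range was taken from these 4 receptors, so their own share in it was fixed in advance. Tlr3, at 0.61 TPM in replicate 2, lay in the range as well and had 5 counts in replicate 1. The cause of the missing counts was not tested. Markers of other blood cells also differed between the libraries, in both directions. Of 11 neutrophil markers, 6 were present in replicate 2 alone, none was present in replicate 1, and Mmp8, Retnlg and Fpr1 had no count in either library. Of 10 B cell markers 5 were present in replicate 2 alone and 7 had no count in replicate 1. Of 12 monocyte and macrophage markers 5 were present in both and none in 1 library alone. In replicate 1, 7 of the 12 had no count, and 6 of these had counts in replicate 2. Adgre1, which encodes the macrophage marker F4/80, had 0 and 2 counts, and Marco none. Of 10 T and NK cell markers 3 were present in replicate 1 alone, among them Cd3e (3.56 and 0 TPM) and Klrb1c (7.24 and 0.43 TPM), and 1 in replicate 2 alone. Their summed levels were 69.7 and 68.2 TPM, of which Nkg7 alone held 36.2 and 55.8 TPM, so the sums say little on the others. On log2(TPM + 1) 5 of the 10 were over 2-fold higher in replicate 1 and 2 in replicate 2, where 5.87% and 6.38% of all coding genes were. Of 9 dendritic cell markers, Zbtb46 (17.7 and 9.35 TPM), Ccr9 and Cox6a2 were present in both, Itgax (2.39 and 0.31 TPM) in replicate 1 alone, and Clec9a, Xcr1, Cd209a and Klk1 had no count. Siglech, below the threshold, went the other way, with no count in replicate 1 and 0.85 TPM (17 counts) in replicate 2. Among 7 mast cell, basophil and eosinophil markers 3 were present in both and 1 in replicate 2 alone. Prg2 was at 31.8 and 1.79 TPM and Hdc at 0.01 and 4.96 TPM. Ms4a2 had 0 and 20 counts. On log2(TPM + 1) 1 marker of this list was over 2-fold higher in each library. The part of these cell types in the receptor levels was not tested, and in a pool fewer cells with a transcript and less transcript per cell cannot be told apart.

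Ordered by mean TPM, the genes ran Myd88, Tlr7, Tlr4, Tlr2, Tlr5, Tlr6, Tlr3, Tlr9, Tlr8 and Tlr1. Myd88 and Tlr7 did not overlap in their library values, and neither did Tlr7 and Tlr4. The later neighbours overlapped, while some genes further apart in the order did not. Tlr4 lay above Tlr6, Tlr3, Tlr9, Tlr8 and Tlr1 without overlap, and Tlr2 above Tlr3, Tlr9, Tlr8 and Tlr1. Of the 45 pairs, 26 did not overlap on TPM and 23 with fixed transcript lengths, where Tlr7 overlapped Tlr4, Tlr2 and Tlr5. The 9 receptors together came to 10.9 and 9.27 TPM in replicates 1 and 2 (10.1 ± 1.16 TPM), close to the level of Myd88 alone. The surface receptors summed to 5.16 and 4.71 TPM and the endosomal ones to 5.75 and 4.56 TPM, a log2 ratio of -0.054 ± 0.14 (pseudocount 0.1 TPM). That balance rests on the short Tlr7 transcripts, since with fixed transcript lengths the endosomal receptors summed to 1.10 and 3.22 TPM and the log2 ratio was 1.38 ± 1.03. The median log2(TPM + 1) difference over the 10 genes was -0.34 for replicate 1 minus 2, beside 0.09 over the 11189 coding genes present in either library and -0.03 over the 13301 with a count in either.

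**Figure D3:**
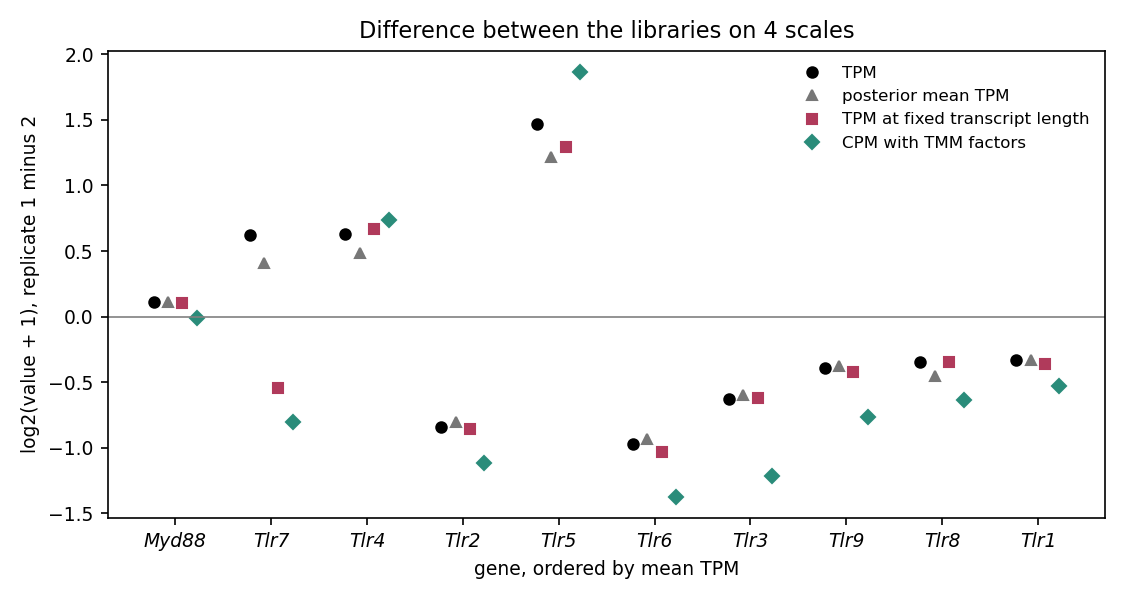
Difference between replicate 1 and replicate 2 for each gene on 4 scales, as log2(value + 1). Tlr5 and Tlr4 lie above 0 and Tlr2, Tlr6, Tlr3, Tlr9, Tlr8 and Tlr1 below 0 on each of the 4, while Tlr7 moves from 0.62 on TPM to -0.54 at fixed transcript length and -0.80 on CPM with TMM factors, and Myd88 lies within 0.11 of 0.

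The sequence around the start sites was set beside these groups for the 8 members matched in the RefSeq promoter table (GRCm38.p6, 250 bases before to 50 after the start). Tlr4 and Tlr7 were not analysed here in this respect, and Tlr1 and Tlr6 had 2 windows each. The motif GAGGAA, a core that the myeloid factor PU.1 can bind, occurs on either strand in 28.3% of the 32851 promoter windows. It was found in 3 of the members' 10 windows, a share near that background, namely 1 of the windows of Tlr1 and those of Tlr8 and Tlr9. The windows of Tlr6, also without a count in replicate 1, and of Tlr2, Tlr3, Tlr5 and Myd88 do not hold it. The Sp1-type motif CCGCCC occurs in 35.7% of windows, and was found for Tlr2, Tlr3, Tlr5 and Myd88. The motif TATAAA occurs in 13.6% of windows and was found for Tlr6, Tlr8 and Myd88. A match is a run of letters and not a measured site. The 6 windows below show the 4 receptors without a count in replicate 1 and, for contrast, Tlr5 and Myd88. For Tlr1 and Tlr6 the window printed is the one that holds a motif, and the other holds none of the 3. The printed windows of Tlr1 and Tlr8 do not reach the starts of Tlr1-201 (64932761) and Tlr8-201 (167263788), which hold the counts of these genes. That of Tlr1-201 lies in the other Tlr1 window. Capitals mark the 3 motifs on either strand, and overlapping matches run together. The windows are chr5:64933509-64933808 for Tlr1, chr5:64959999-64960298 for Tlr6, chrX:167264280-167264579 for Tlr8 and chr9:119339969-119340268 for Myd88, all on the minus strand, and chr9:106222348-106222647 for Tlr9 and chr1:182954538-182954837 for Tlr5, both on the plus strand.
Tlr1: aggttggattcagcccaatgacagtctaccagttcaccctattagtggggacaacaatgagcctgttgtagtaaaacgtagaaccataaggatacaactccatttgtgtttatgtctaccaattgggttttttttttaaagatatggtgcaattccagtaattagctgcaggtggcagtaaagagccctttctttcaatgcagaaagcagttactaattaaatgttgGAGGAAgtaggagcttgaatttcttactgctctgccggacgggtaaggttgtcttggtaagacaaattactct
Tlr6: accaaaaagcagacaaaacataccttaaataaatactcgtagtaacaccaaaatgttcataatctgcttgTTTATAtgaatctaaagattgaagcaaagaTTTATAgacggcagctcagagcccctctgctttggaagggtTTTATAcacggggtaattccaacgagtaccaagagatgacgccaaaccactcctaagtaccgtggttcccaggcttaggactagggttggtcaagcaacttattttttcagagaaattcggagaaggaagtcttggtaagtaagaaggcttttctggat
Tlr8: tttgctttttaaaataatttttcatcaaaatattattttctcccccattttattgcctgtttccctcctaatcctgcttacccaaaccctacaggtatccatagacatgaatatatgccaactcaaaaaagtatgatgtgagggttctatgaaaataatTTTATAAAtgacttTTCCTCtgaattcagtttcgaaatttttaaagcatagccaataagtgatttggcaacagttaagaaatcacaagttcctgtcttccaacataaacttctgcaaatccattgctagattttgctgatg
Tlr9: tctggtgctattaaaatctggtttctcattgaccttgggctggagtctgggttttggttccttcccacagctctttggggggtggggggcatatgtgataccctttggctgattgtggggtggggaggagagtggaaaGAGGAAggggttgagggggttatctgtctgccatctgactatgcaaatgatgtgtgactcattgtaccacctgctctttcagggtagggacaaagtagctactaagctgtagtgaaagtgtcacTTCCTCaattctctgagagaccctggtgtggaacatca
Tlr5: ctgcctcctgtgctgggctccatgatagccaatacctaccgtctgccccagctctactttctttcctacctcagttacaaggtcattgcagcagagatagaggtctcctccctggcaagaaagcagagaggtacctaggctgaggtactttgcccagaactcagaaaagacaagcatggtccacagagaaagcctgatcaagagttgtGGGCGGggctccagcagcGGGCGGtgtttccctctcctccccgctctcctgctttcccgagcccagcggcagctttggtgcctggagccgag
Myd88: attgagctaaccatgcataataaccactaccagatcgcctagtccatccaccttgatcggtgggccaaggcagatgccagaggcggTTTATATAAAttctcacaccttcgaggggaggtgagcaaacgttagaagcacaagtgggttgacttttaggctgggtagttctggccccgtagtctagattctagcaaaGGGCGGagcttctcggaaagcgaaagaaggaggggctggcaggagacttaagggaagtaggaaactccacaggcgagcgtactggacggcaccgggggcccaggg
The windows differ in base content. G and C make up 32.3% of that of Tlr8, 40.3% of those printed for Tlr1 and Tlr6 (48.3% and 43.0% of their other windows) and 49.7% of that of Tlr9, against 57.3% for Tlr5 and 54.0% for Myd88, where the median over all windows is 52.7%. CG pairs numbered 0 for Tlr9, 1 for Tlr8, 3 for Tlr1 and 7 for Tlr6 (9 and 5 in their other windows). Tlr5 had 8 and Myd88 13, beside a median of 7. The windows of Tlr3, below the threshold in both libraries, and Tlr2 had 51.0% and 62.0% G and C with 10 and 11 CG pairs. A link between base content and counts was not tested.

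The other genes of the pathway were mostly present. Of 82 pathway genes beside the members, 60 were present in both libraries, 2 in replicate 1 alone and 3 in replicate 2 alone, where 45.5%, 2.09% and 4.52% of coding genes were. All 16 kinases and ubiquitin ligases and all 8 transcription factors of the list were among them, with 4 of the 5 other adaptors and 11 of the 12 negative regulators. The kinase list was led by Tab2 (113 and 84.6 TPM), an adaptor of the kinase Tak1, Ikbkb (59.9 ± 13.4 TPM), Irak1 (55.6 ± 13.4 TPM) and Chuk (30.5 ± 16.3 TPM). Irak1, which binds Myd88 through Irak4, was at 46.2 and 65.1 TPM and thus above Myd88 in both libraries, by 2.74 ± 0.44 log2 units. Among transcription factors Irf3 (43.0 ± 3.43 TPM), Nfkb1 (35.3 ± 5.10 TPM) and Rela (28.3 ± 4.79 TPM) were highest, followed by Irf7 at 17.5 and 3.18 TPM.

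The adaptors that serve particular receptors had lower mean TPM than Myd88, and only those of Ticam1 and Pik3ap1 overlapped it between libraries. With fixed transcript lengths the mean of Ticam1 (8.16 ± 2.23 TPM) was above that of Myd88 (7.10 ± 0.42 TPM). Ticam1, the adaptor of Tlr3, was at 7.41 ± 1.92 TPM, Tirap, which bridges Tlr2 and Tlr4 to Myd88, at 4.76 ± 1.03 TPM, and Ticam2, which links Tlr4 to Ticam1, at 3.71 ± 1.20 TPM. Pik3ap1 followed Ticam1 at 5.85 ± 2.96 TPM, and Sarm1 had 0 and 6 counts. Negative regulators were led by the phosphatase gene Inpp5d (73.5 ± 2.38 TPM), then the NF-kB inhibitor gene Nfkbia (13.3 ± 0.30 TPM), Irak3, which encodes an inhibitory Irak protein (12.1 ± 2.09 TPM), and Tollip (12.1 ± 3.75 TPM). Socs1 was present in replicate 1 alone, at 1.65 and 0.10 TPM.

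Accessory proteins of the receptors were uneven. Ly96, whose product MD-2 binds lipopolysaccharide together with Tlr4, was at 18.8 TPM in replicate 1 (307 counts) and 3.18 TPM in replicate 2 (29 counts). It exceeded Tlr4 in both libraries, by 2.26 ± 1.10 log2 units. Cd14, the co-receptor of monocytes that passes lipopolysaccharide to the complex, had no count in replicate 1 and 0.53 TPM in replicate 2 (14 counts). Cd180, a receptor related to Tlr4, stood at 17.9 and 13 TPM, also above Tlr4 in both libraries. Unc93b1, which carries the endosomal receptors to their compartment, was at 7.81 and 23.1 TPM. The chaperone gene Hsp90b1, required for folding of many of the receptors, was highest of its list at 94.9 ± 8.0 TPM, followed by its partner Cnpy3 (11.9 and 27.2 TPM) and by Lbp, which encodes a lipopolysaccharide carrier of serum (19.9 and 13.5 TPM). Of the genes for endosomal processing, Ap3b1 (29.1 ± 1.88 TPM) and the cathepsin genes Ctsb (22.1 ± 3.78 TPM) and Ctss (16.5 and 5.13 TPM) were highest, then Slc15a4 (10.3 ± 1.17 TPM). The protease gene Lgmn was present in replicate 2 alone, at 1.05 TPM with no count in replicate 1. Of the other mouse receptors Tlr11 had no count in either library, and Tlr12 and Tlr13 had 7 and 20 counts in replicate 2 with none in replicate 1.

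**Figure D4:**
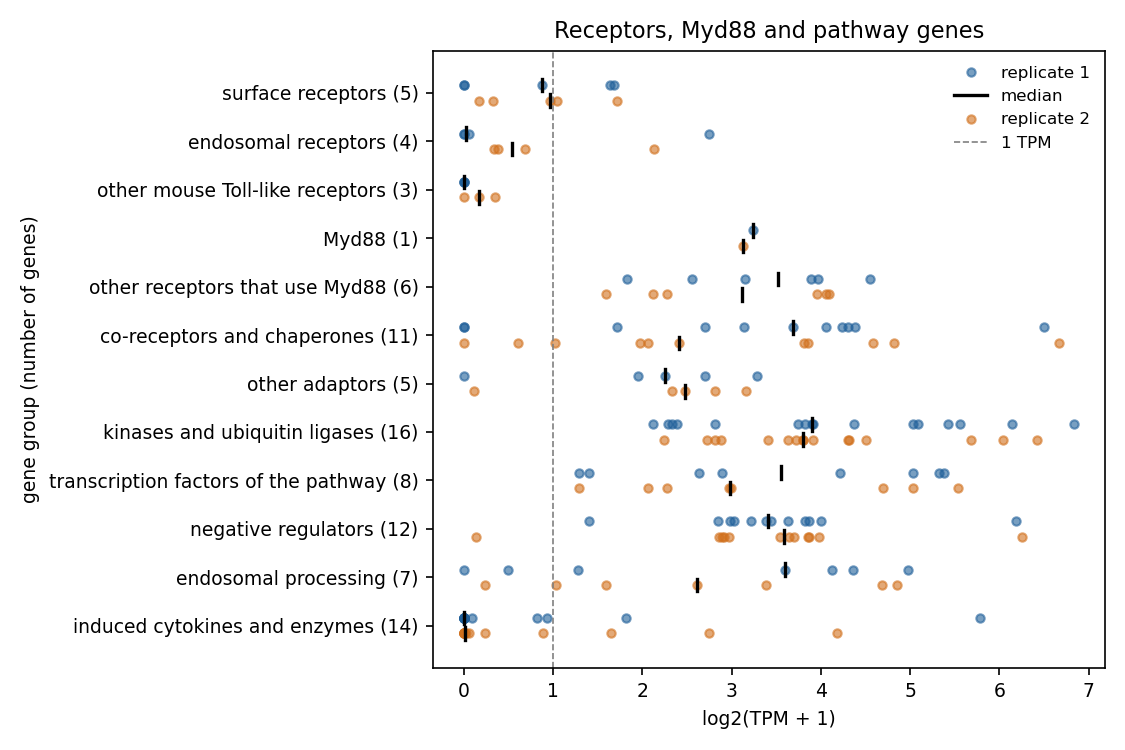
Levels of the receptors, Myd88 and the other pathway genes as log2(TPM + 1), by group, with the number of genes in brackets. Each point is a gene in a library, black bars are medians, and the dashed line is 1 TPM. All 16 kinases and ubiquitin ligases and all 6 other receptors that use Myd88 lie right of the line in both libraries, whereas 5 of the 9 receptors lie left of it in both.

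Myd88 also serves receptors of the interleukin-1 family, and all 6 of these in the list were present in both libraries. Il1r1, the receptor for interleukin-1, stood at 22.4 TPM in replicate 1 (3498 counts) and 15.6 TPM in replicate 2 (1464 counts). Il18rap (14.9 ± 1.58 TPM) and Il1rl1, the receptor for interleukin-33 (14.6 ± 0.11 TPM), followed, and Il18r1 was at 7.91 and 2.03 TPM. The 6 genes summed to 66.2 and 55.4 TPM, against 10.9 and 9.27 TPM for the 9 Toll-like receptors. The log2 ratio of these sums was 2.58 ± 0.02 (pseudocount 0.1 TPM), and 2.81 ± 0.51 with fixed transcript lengths. The interleukin-1 family group was therefore the higher in both libraries and on both scales. No test is given for these ratios, since with 2 libraries the smallest p of an exact sign-flip test is 0.5 (two-sided).

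Among 14 cytokines and enzymes that the pathway induces in mature cells, 8 had counts in a library, and Ccl3 was present in both (54.1 and 17.1 TPM). Il1b (2.53 and 0.18 TPM) was present in replicate 1 alone, and Ccl4 (0 and 5.72 TPM) and Tnf (0 and 2.15 TPM) in replicate 2 alone. Ptgs2 (127 and 3 counts) and Acod1 (61 and 1 counts) were higher in replicate 1 and under the threshold. Il6, Il12b, Il10, Cxcl1, Nos2 and Ifnb1, which make 6 of the 14, had no count in either library, as was the case for 38.0% of all coding genes.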

How the data were processed

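Total RNA was sequenced in 2 libraries of 1 group. The authors deposited an expected count for each gene and transcript, which need not be whole. Beside it the deposited tables give TPM, its posterior mean, FPKM and the percent of a gene's signal on each transcript. Column names are those of RSEM, per the file headers, and the sample text names build mm10 and GENCODE M4. The sources used here do not name the aligner, program versions or strand handling. Rows without a mouse gene identifier were left out. Symbols matched 98.0% of 43346 identifiers, and positions, biotypes and transcript names are those of GENCODE M21 on the same build. Coding genes exclude the mitochondrial genome.

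The members and lists were chosen with earlier results of these data known. The genes named are all members, the other mouse receptors, the 4 of highest mean TPM per pathway list and those present in 1 library alone. Any other gene was picked with its values in view. The sources give no test between groups. Counts carry 95% exact Poisson intervals and a count of 0 a limit of 3 counts. Reads copied by PCR are not independent molecules, and both cover counting error only. Alternatives were thresholds, pseudocounts, units, rescaling to coding genes, edgeR 4.0.16 TMM and DESeq2 1.42.0 factors on rounded expected counts (R 4.3.3), each library alone and fixed transcript length. Steps were tested on simulated data (scipy 1.17.1, pandas 2.3.3 and numpy 2.4.6 under Python 3.11.15).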

Additional observations from a re-analysis of the deposited data

How the results depend on the processing

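No paired analysis was possible because the 2 libraries form a single group. The calls near 1 TPM depend on the threshold. The 2 receptors present in both libraries became 1 at 2 TPM and 1 with FPKM, where Tlr4 was present in replicate 1 alone, and 5 with any count. Those present in replicate 1 alone went from 1 to 2 at 2 TPM, 2 with FPKM and 0 with any count. Those present in replicate 2 alone went from 1 to 2 at 0.5 TPM, 4 with any count, 4 with TPM rescaled to coding genes and 2 with fixed transcript length. Members present in both libraries went from 3 to 6 with any count. Each library alone held 4 members, 3 receptors and 62 or 63 other pathway genes. With any count, 10.7% of all coding genes had counts in replicate 2 alone and 0.596% in replicate 1 alone. With fixed transcript length 4.17% were present in replicate 2 alone. For the other settings no share over all coding genes was computed, so these numbers show only how the calls move. The median member difference of -0.34 was -1.60 with a pseudocount of 0.1, -0.999 rescaled, -0.70 with TMM and -0.70 with DESeq2 factors, and 0.62 over members present in a library, a choice that the difference itself affects and whose middle value is that of Tlr7. The surface to endosomal log2 ratio of -0.054 was 0.046 and -0.15 without each library in turn and 1.38 with fixed transcript length, where the short Tlr7 transcripts carry no extra weight. Mean Myd88 was 28.7 TPM rescaled and 7.10 TPM with fixed length, and the receptor sum 35.6 and 7.27 TPM. Of 60 alternative values of single members, 54 kept their direction. Tlr1, Tlr6, Tlr8 and Tlr9 had no count in replicate 1, so their values could not reverse on any scale but the posterior mean. The number is thus no measure of how firm the directions are. Tlr7 turned from 0.62 to -0.80 (TMM), -0.81 (DESeq2) and -0.54 (fixed length), and Myd88 from 0.11 to -0.051 (rescaled), -0.011 (TMM) and -0.025 (DESeq2). With 2 pools of 100 cells, a receptor without a count in replicate 1 cannot be told from one missed there.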

Other observations

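Genes around the receptors also changed with the transcript length used, and these were picked after their values were seen. Irf7, an interferon regulator downstream of Tlr7 and Tlr9, was higher in replicate 1 by 2.15 log2(TPM + 1) units and by 0.86 with fixed transcript length. For Chuk, which encodes an IkB kinase subunit, the difference was 1.11 and 0.11, and for the related kinase gene Ikbke 1.23 and -0.15. Slc15a4, an endosomal transporter gene needed for Tlr7 and Tlr9 signalling, went from 0.21 to -1.38. Tbk1 (0.96 and 0.99), Ly96 (2.24 and 2.27) and Unc93b1 (-1.45 and -1.24) changed little between the scales.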
